A study of Homo sapiens with 6 samples.

Results

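The tumor necrosis factor (TNF) superfamily and its receptor superfamily were examined in RNA-seq counts of MDA-MB-231, a cell line established from a human breast cancer. The shBry group, 3 libraries, carried a hairpin RNA that targets the transcription factor brachyury, and the shNC group, also 3 libraries, a negative control hairpin. Members were chosen by symbol: every TNFSF and TNFRSF gene with a number in its name and without a hyphen, together with FAS, FASLG, LTBR, CD40, CD27, CD70, NGFR, EDA, EDAR and EDA2R. This gave 42 genes, 14 ligands and 28 receptors, among 54259 symbols. TNF, LTA and LTB lie in the MHC region, where counts were lost, and were left out. The labels and the paper name MDA-MB-231 cells, whereas the design text of the series describes the RNA as pericardial. The labels give neither the hairpin sequences nor whether libraries came from separate cultures, so p-values measure the spread between these libraries, which may be technical.

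Ligands of this superfamily are mostly trimers on the cell surface that can be cleaved and shed, and their receptors gather into trimers when they bind. Receptors with a death domain inside the cell can recruit FADD and caspase-8 and start apoptosis, or recruit TRADD and RIPK1 and start NF-kappa-B signaling. Receptors without a death domain bind TRAF adaptor proteins directly and lead to NF-kappa-B and JNK signaling. Decoy receptors bind ligand but lack a working death domain or are secreted. In tumor cells the system is best known for TRAIL, the ligand encoded by TNFSF10, whose death receptors can kill transformed cells.

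The libraries held between 19319411 and 22985371 counts. A gene was called at a Benjamini-Hochberg adjusted p below 0.05 in edgeR's quasi-likelihood test over all genes and a fold change above 1.5, and fold changes are shBry relative to shNC. Brachyury, listed under its older symbol T, had 0 counts in every library, so the knockdown could not be checked on its target. The paper describes brachyury as overexpressed in these cells, but it had no count in shNC either. The 8 genes fixed as markers of MDA-MB-231 cells had means in shNC from 68.2 CPM (counts-per-million) for EGFR to 3864 for VIM, and of 7 genes fixed as low in these cells, ESR1, PGR, CDH1, KRT5 and KRT14 were at or near 0. GATA3 went against that list, with 10.4 CPM in shNC and 13.0 in shBry. Of the 8, PLAUR was called higher, and CAV1 and KRT8 lower, and EPCAM, also of the low list, rose from 1.55 CPM in shNC to 4.28 in shBry. Of 12 leukocyte markers, PTPRC, TYROBP, MS4A1 and NKG7 were among those without a count, and the sum of the list was 641 to 663 CPM in shBry and 611 to 663 in shNC, nearly all of it LAPTM5 and CD68. CD3D and CD14, both below 2 CPM, were called in opposite directions. Sums were 31.7 to 35.3 CPM in shBry and 30.2 to 35.6 in shNC for 6 fibroblast markers, and 1.29 to 2.66 and 3.40 to 4.63 for 5 endothelial markers, of which KDR was called lower.

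Of the 42 members, 24 had enough counts to be tested, 6 ligands and 18 receptors. Called members numbered 9 (37.5%), where 32.4% of all 15277 tested genes were called. The 6 called higher were the ligand TNFSF15 and the receptors TNFRSF9, TNFRSF12A, TNFRSF10A, TNFRSF1B and TNFRSF10B (25% of those tested, against 17.1% of all genes). The 3 called lower were the ligand EDA and the decoy receptors TNFRSF6B and TNFRSF10D (12.5%, against 15.2%). The groups did not overlap for 18 of the 24 (75%), where this held for 59.5% of all genes. As the RNA is of whole cultures, fewer cells with a transcript and less of it per cell cannot be told apart. The shares are near the background, and the median log2 fold change was 0.02 for the tested members and 0.03 for all tested genes. A further 7 members passed the adjusted p but not the fold change limit, which makes 16 of 24 at an adjusted p below 0.05 (66.7%), where 53.3% of all genes reached it.

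**Figure D1:**
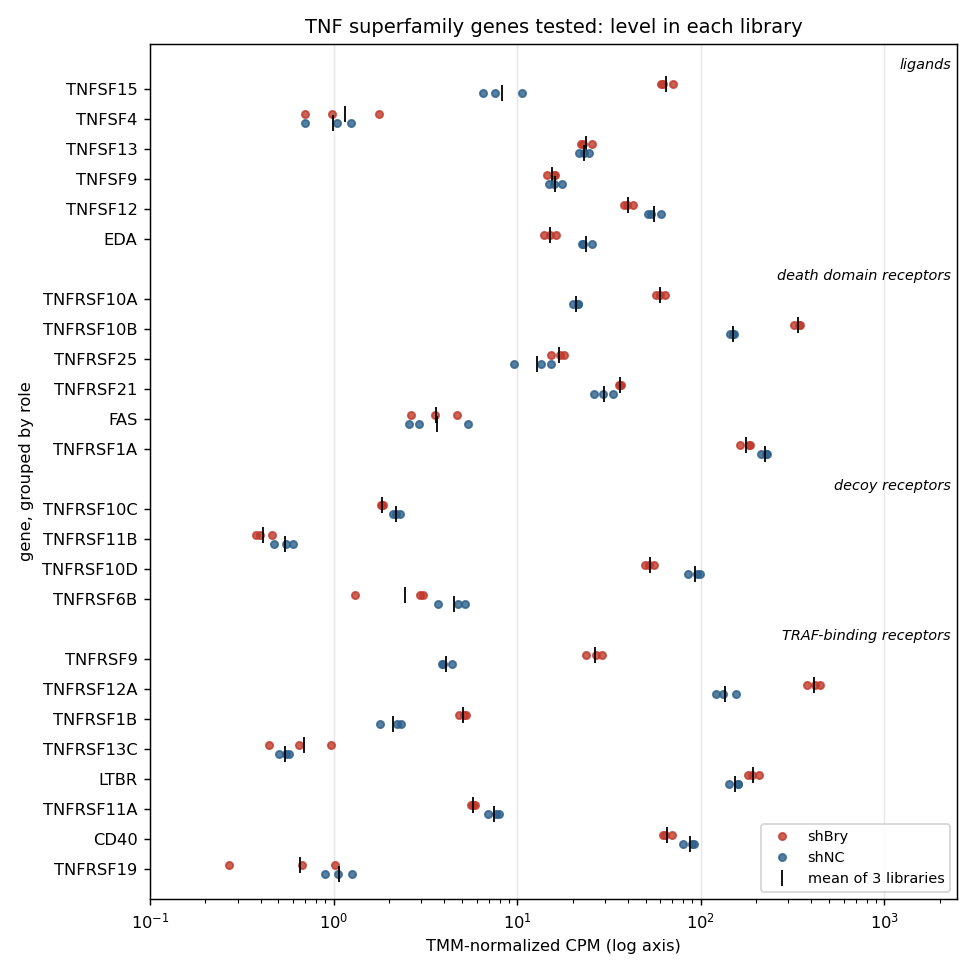
TMM-normalized CPM on a log axis for the 24 tested members, grouped by role, with 3 points for each group and a vertical mark at each mean. The TNFSF15, TNFRSF9, TNFRSF12A, TNFRSF10A, TNFRSF10B and TNFRSF1B points of shBry lie to the right of all shNC points, and those of EDA, TNFRSF10D and TNFRSF6B to the left.

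Among the 6 tested ligands, TNFSF15 had the largest change. It encodes TL1A, a ligand that binds the death receptor of TNFRSF25 and the secreted decoy of TNFRSF6B, and it lies on chromosome 9 (GRCh38, minus strand, bases 114784635 to 114806126). Its level was 62.2, 70.6 and 60.5 CPM in shBry replicates 1, 2 and 3, and 7.61, 10.5 and 6.51 in shNC replicates 1, 2 and 3. All shBry libraries were far above all shNC libraries. TNFSF15 rose 7.83-fold, a log2 fold change (± standard error, here and below) of 2.97 ± 0.15 (adjusted p = 1.8e-09), and ranked 113 among the 15277 tested genes by its rise. Per kilobase of exon, TNFSF15 made up 14.6% to 17.3% of the ligand signal in the shBry libraries and 1.62% to 2.26% in the shNC libraries.

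EDA encodes ectodysplasin A, the ligand of the ectodermal receptors EDAR and EDA2R. It had 14.0, 15.0 and 16.3 CPM in shBry and 22.6, 25.6 and 22.7 CPM in shNC, with no overlap. EDA fell to a log2 fold change of -0.65 ± 0.12 (adjusted p = 0.00042). Neither of its receptors was detected at more than 1 count in any library. TNFSF12 encodes TWEAK, the ligand of the receptor of TNFRSF12A. It had 42.7, 39.5 and 38.3 CPM in shBry and 53.5, 60.9 and 51.6 CPM in shNC, a log2 fold change of -0.46 ± 0.10 (adjusted p = 0.0012), which stays under the fold change limit. Other annotated genes cover 33.2% of its exon bases, among them the read-through gene TNFSF12-TNFSF13, which was counted on its own row with 352 to 407 counts in shBry and 499 to 577 in shNC.

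TNFSF13, which encodes APRIL, a survival factor of B cells, had nearly the same level in both groups. It had 25.5, 22.3 and 22.9 CPM in shBry and 21.7, 24.7 and 23.0 CPM in shNC, a log2 fold change of 0.02 ± 0.11 (adjusted p = 0.87), and the read-through gene covers 55.5% of its exon bases. TNFSF9, which encodes the 4-1BB ligand, had 15.9, 14.5 and 16.0 CPM in shBry and 15.9, 17.4 and 14.8 CPM in shNC, a log2 fold change of -0.06 ± 0.12 (adjusted p = 0.73). The groups overlapped for both genes. TNFSF4, which encodes the OX40 ligand, had 13 to 42 counts in shBry and 14 to 27 in shNC, with a log2 fold change of 0.22 and a standard error of 0.38.

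The other 8 ligands were not tested because of low counts. TNFSF11, TNFSF18 and FASLG had 0 counts in every library, which allows a level of up to 0.126 to 0.162 CPM depending on the library (3 counts, counting error only). TNFSF10, the TRAIL gene, had 0, 1 and 6 counts in shBry and 2, 4 and 6 in shNC. TNFSF14 had at most 4 counts and TNFSF13B at most 6 in any library. TNFSF8, which encodes the CD30 ligand, had 7, 16 and 9 counts in shBry and 0, 0 and 3 in shNC. CD70 had 2, 10 and 11 counts in shBry and 2, 1 and 1 in shNC. When the expression filter was left out, TNFSF8 and CD70 passed both thresholds, with adjusted p of 0.0017 and 0.045 in edgeR's test. Adjusted p of that fit are not on the scale of the main fit. For TNFSF15 edgeR gave 7.7e-115 without the filter and 1.8e-09 with it, at log2 fold changes of 2.94 and 2.97. For TNFRSF11A the value went the other way, 0.078 without the filter and 0.046 with it.

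**Figure D2:**
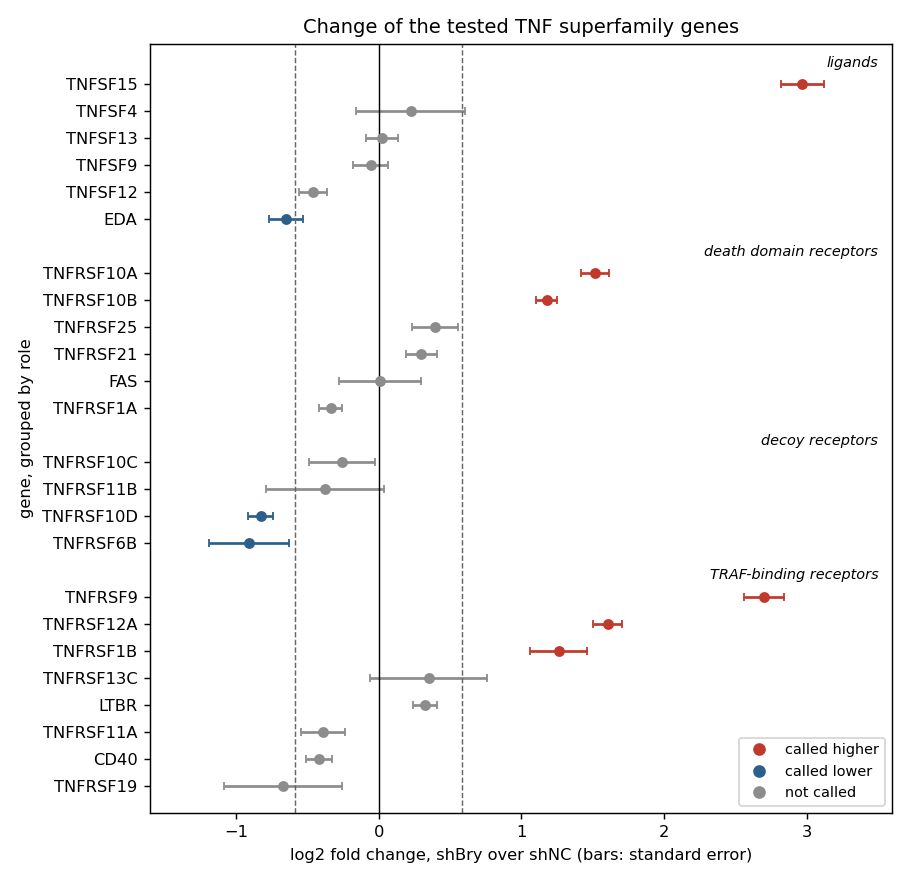
Log2 fold change of shBry over shNC for the 24 tested members, grouped by role, with bars of 1 standard error and dashed lines at the fold change limit of 1.5. Changes run from -0.91 for TNFRSF6B to 2.97 for TNFSF15. The decoy receptors all lie left of 0, though TNFRSF10C and TNFRSF11B were not called.

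Both genes for TRAIL death receptors rose, and of the genes for its decoys TNFRSF10D fell. TNFRSF10A and TNFRSF10B encode the death receptors DR4 and DR5, and TNFRSF10C and TNFRSF10D encode decoys that bind TRAIL without a working death domain. All 4 genes lie together on chromosome 8 of GRCh38, between 23020133 and 23225126. TNFRSF10A had 64.0, 59.6 and 56.6 CPM in shBry and 20.2, 21.4 and 21.3 CPM in shNC. TNFRSF10B had 346, 323 and 341 CPM in shBry and 152, 145 and 150 CPM in shNC. Both groups were tight and far apart, and both genes were called higher, with log2 fold changes of 1.52 ± 0.10 (adjusted p = 1.7e-08) and 1.18 ± 0.08 (adjusted p = 1.7e-08).

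TNFRSF10D had 52.4, 49.9 and 55.5 CPM in shBry and 95.7, 85.4 and 98.5 CPM in shNC. It fell to a log2 fold change of -0.83 ± 0.09 (adjusted p = 3.2e-06). None of its exon bases is covered by another annotated gene, and 0.831% of the stretches of 50 bases in its transcripts occur in transcripts of another gene. TNFRSF10C was low, at 1.83, 1.81 and 1.86 CPM in shBry and 2.11, 2.17 and 2.30 CPM in shNC. Its groups did not overlap, but its log2 fold change of -0.26 ± 0.23 (adjusted p = 0.37) was not called. Other annotated genes cover 39.3% of its exon bases, and 35.4% of the stretches of 50 bases in its transcripts occur in transcripts of other genes, so its level is uncertain. For TNFRSF10A, 16.6% of exon bases are covered, by an antisense gene among others.

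The balance of the TRAIL receptors was read within each library, which does not depend on scaling between libraries. Counts per kilobase of exon of the death receptor genes, divided by those of TNFRSF10C and TNFRSF10D, gave 5.62, 5.49 and 5.11 in shBry and 1.29, 1.40 and 1.25 in shNC. TNFRSF11B, which encodes a secreted decoy that also binds TRAIL, was left out of this ratio. Every shBry library was thus above every shNC library. The ratio of raw counts of TNFRSF10B to TNFRSF10D was 6.60, 6.47 and 6.14 in shBry and 1.59, 1.70 and 1.52 in shNC. Their ligand, as described above, had at most 6 counts in any library.

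**Figure D3:**
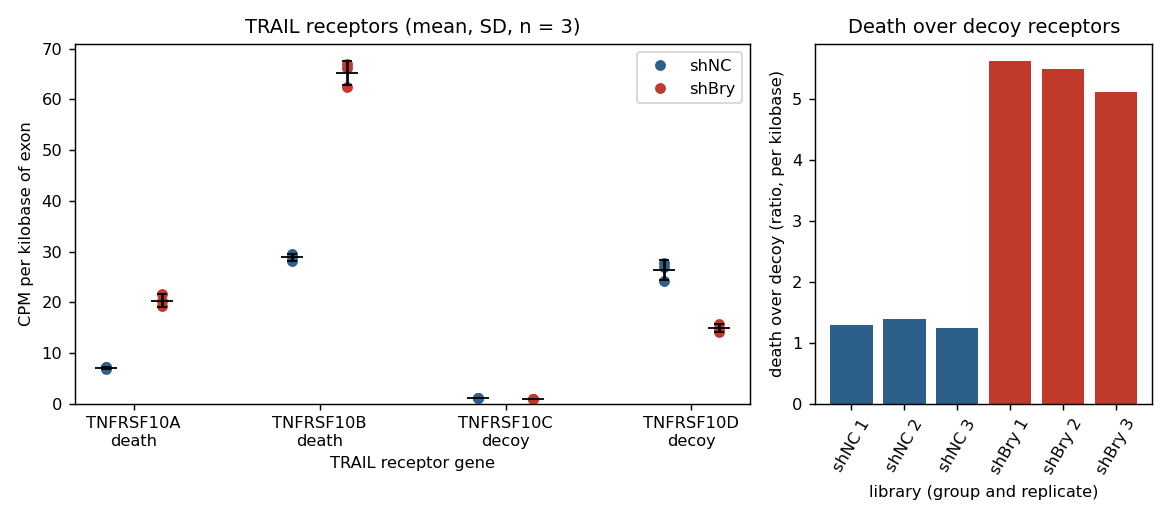
Left, CPM per kilobase of exon of the TRAIL receptor genes, with 3 points per group and bars for the mean and SD. Right, the ratio of death to decoy receptors in each library, which is between 5.11 and 5.62 in shBry and between 1.25 and 1.40 in shNC.

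The other death domain receptors changed little. TNFRSF1A encodes the main receptor of TNF itself. It had 185, 163 and 183 CPM in shBry and 230, 227 and 213 CPM in shNC, a log2 fold change of -0.34 ± 0.08 (adjusted p = 0.0029), without overlap but under the fold change limit. TNFRSF21, which encodes DR6, had 35.9, 36.9 and 36.2 CPM in shBry and 26.0, 29.3 and 33.3 CPM in shNC, a log2 fold change of 0.30 ± 0.11 (adjusted p = 0.033). TNFRSF25, which encodes DR3, the receptor of TL1A, had 18.0, 15.3 and 17.1 CPM in shBry and 13.5, 15.2 and 9.62 CPM in shNC, a log2 fold change of 0.40 ± 0.16 (adjusted p = 0.0499). Neither value is firm: TNFRSF25 had a log2 fold change of 0.20 (adjusted p = 0.23) without shNC replicate 3, and TNFRSF21 had 0.21 (adjusted p = 0.18) without shNC replicate 1. FAS, the receptor of the Fas ligand, had 2.64, 4.68 and 3.55 CPM in shBry and 2.57, 2.93 and 5.41 CPM in shNC. Its groups overlapped, with a log2 fold change of 0.01 and a standard error of 0.29. NGFR had at most 10 counts and EDAR at most 1 in any library.

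Among the secreted decoys, TNFRSF6B encodes DcR3, which binds TL1A, LIGHT and the Fas ligand. It had 2.96, 1.31 and 3.06 CPM in shBry and 5.18, 4.73 and 3.71 CPM in shNC. The groups did not overlap, and TNFRSF6B was called lower, with a log2 fold change of -0.91 ± 0.28 (adjusted p = 0.014). Without shBry replicate 2, the lowest library, the log2 fold change was -0.61. Other annotated genes cover 100% of its exon bases. The read-through gene RTEL1-TNFRSF6B had its own row, with 507 to 618 counts in shBry and 844 to 1038 in shNC. It was called lower as well, with a log2 fold change of -0.80, as was RTEL1, with -0.79. ARFRP1, which also overlaps TNFRSF6B, had 0.53 and was not called. The signals of TNFRSF6B and its read-through gene cannot be told apart. TNFRSF11B encodes osteoprotegerin, which binds the ligands of TNFSF11 and TNFSF10. It had 7 to 11 counts in shBry and 10 to 12 in shNC, with a log2 fold change of -0.38 and a standard error of 0.41.

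Of the 8 tested TRAF-binding receptors, TNFRSF9, TNFRSF12A and TNFRSF1B were called higher (37.5%, against 17.1% of all genes). None was called lower, against 15.2% of all genes. TNFRSF9 encodes 4-1BB, a receptor best known as a costimulator on activated T cells, and lies on chromosome 1 (GRCh38, minus strand, bases 7915894 to 7943165). It had 23.7, 26.9 and 28.9 CPM in shBry and 4.40, 3.88 and 3.96 CPM in shNC, far apart and with little spread. TNFRSF9 rose 6.49-fold, a log2 fold change of 2.70 ± 0.14 (adjusted p = 2.2e-09). Its ligand TNFSF9 did not move with it, as given above. Of the 12 leukocyte markers, 5 were at 0 in every library, PTPRC among them. The T cell gene CD3E had 1 count, in shBry replicate 2, and no other. CD3D, also a T cell gene, had a mean of 0.603 CPM in shNC and 1.53 in shBry and was called higher. CD14 was called lower. The part of leukocytes in the TNFRSF9 level was not tested.

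TNFRSF12A encodes Fn14, a small receptor of TWEAK that is known to be induced by growth factors and in tumors, on chromosome 16 of GRCh38 from 3018445 to 3022383. It had 448, 378 and 416 CPM in shBry and 132, 155 and 121 CPM in shNC. TNFRSF12A rose 3.04-fold, a log2 fold change of 1.61 ± 0.10 (adjusted p = 1.3e-08). Per kilobase of exon it was the most abundant member in all 6 libraries, with 43.4% to 45.9% of the family's signal in shBry and 21.3% to 24.6% in shNC. TNFRSF1B encodes the second TNF receptor, which has no death domain. It was far lower than TNFRSF1A, at 4.79, 5.14 and 5.28 CPM in shBry and 2.34, 1.80 and 2.20 CPM in shNC, and rose 2.40-fold, a log2 fold change of 1.26 ± 0.20 (adjusted p = 0.00011).

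LTBR, the lymphotoxin beta receptor, had 208, 180 and 189 CPM in shBry and 159, 159 and 142 CPM in shNC. Its log2 fold change of 0.33 ± 0.08 (adjusted p = 0.0051) was under the fold change limit. CD40, a receptor of antigen-presenting cells that many carcinoma cells also express, went the other way, with 62.5, 63.9 and 69.5 CPM in shBry and 91.6, 89.8 and 80.2 CPM in shNC. Its log2 fold change was -0.42 ± 0.09 (adjusted p = 0.0011), also under the limit. TNFRSF11A, which encodes the osteoclast receptor RANK, had 107 to 133 counts in shBry and 146 to 174 in shNC, with a log2 fold change of -0.39 ± 0.15 (adjusted p = 0.046). That adjusted p lay between 0.054 and 0.15 when each library was left out in turn. TNFRSF13C and TNFRSF19 overlapped between groups, with at most 25 counts in a library and log2 fold changes of 0.35 and -0.67 (standard errors 0.41 and 0.41). The remaining 8 receptors of this kind were not tested. TNFRSF18, CD27 and TNFRSF13B had no count, and EDA2R, TNFRSF4, TNFRSF8, TNFRSF14 and TNFRSF17 had at most 8 in any library.

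Levels of different genes were compared per kilobase of exon. In shNC the order of mean levels was TNFRSF12A (73.6 CPM per kilobase), TNFRSF1A (55.8), CD40 (34.5), TNFSF12 (29.5), TNFRSF10B (28.9), TNFRSF10D (26.3) and LTBR (24.4). In shBry it was TNFRSF12A (224 CPM per kilobase), TNFRSF10B (65.2), TNFRSF1A (44.2), LTBR (30.6), CD40 (25.8), TNFSF12 (21.4) and TNFRSF10A (20.4). TNFRSF10B was thus above TNFRSF1A in shBry and below it in shNC, which held in each library. All members together took 0.153% to 0.156% of the counts of a shBry library and 0.103% to 0.109% of those of a shNC library. This share is set by the most abundant members. TNFRSF12A had 8321 to 9387 counts in shBry and 2423 to 3280 in shNC, and TNFRSF10B 6423 to 7692 and 2987 to 3317. TNFRSF1A went the other way, with 3440 to 4132 and 4258 to 5018. The share is thus no measure of a typical member, as the members' median log2 fold change was 0.02.

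**Figure D4:**
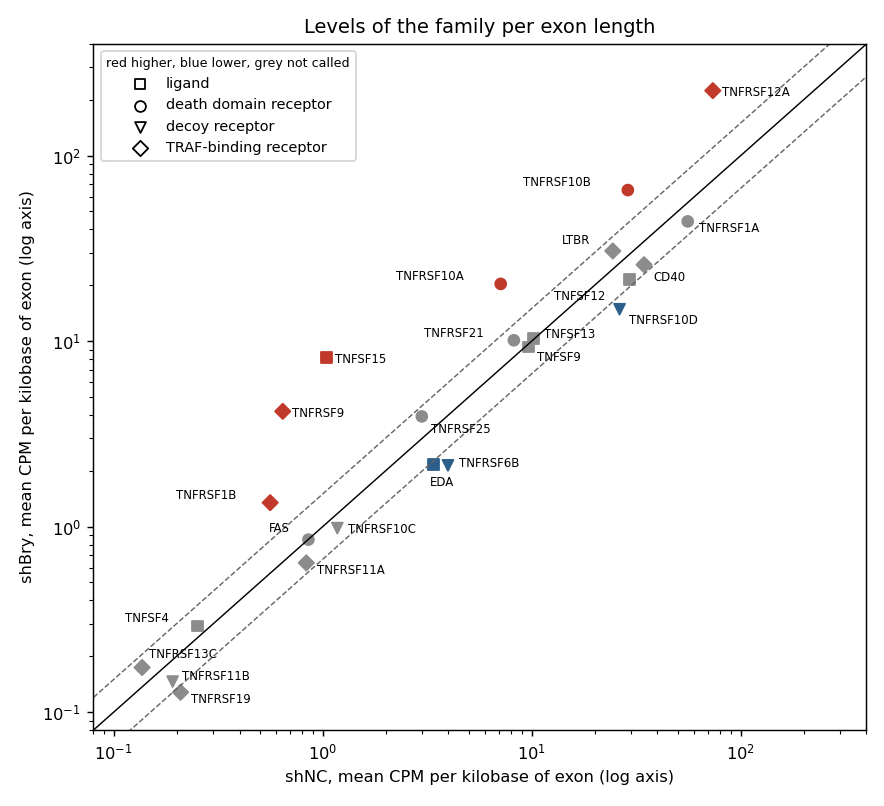
Mean CPM per kilobase of exon in shNC and shBry, both on log axes, for the 24 tested members, with marker shapes for roles. The solid line marks equal levels and the dashed lines a fold change of 1.5, and TNFRSF12A stands at the top in both groups, at 73.6 in shNC and 224 in shBry.

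Known ligand and receptor pairs were set side by side. Of 27 pairs, both partners were tested in 4, the receptor alone in 12, the ligand alone in 5 and neither in 6. For TWEAK and Fn14 the log2 fold change was -0.46 for the ligand and 1.61 for the receptor. For the 4-1BB ligand and 4-1BB it was -0.06 and 2.70. For TL1A it was 2.97, with 0.40 for its death receptor DR3 and -0.91 for its decoy DcR3. The DcR3 value cannot be told apart from that of the read-through gene. ESPN and PLEKHG5 cover 11.4% of the exon bases of the DR3 gene, with log2 fold changes of -0.96 and 0.43, neither called. In none of the 4 pairs were both partners called in the same direction. Of all tested genes, 17.1% were called higher and 15.2% lower, and the TL1A pairs share their ligand. The 4 pairs are too few to show whether partners move together.

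Promoter windows from RefSeq, on GRCh38.p14, were given for 26 of the 42 members. Of the called members, TNFRSF12A, TNFRSF10A, TNFRSF10B, TNFRSF10D and EDA had no window and were not searched. They reach from 250 bases before to 50 bases after a RefSeq start, which can lie inside the annotated gene. Both strands were searched for NF-kappa-B (GGG, then any 3 bases, then TTCC), AP-1 (TGANTCA) and CHOP-ATF4 (TGANGCAA) letters. An AP-1 match was in 7 of the 26 genes, where 9.37% of 27305 genes in the table held one in at least 1 window. These were TNFSF15 and TNFRSF9, which rose, FAS, which did not pass the test, and the untested genes CD27, EDA2R, TNFRSF8 and TNFSF14. An NF-kappa-B match was in 2 genes, TNFRSF9 and TNFSF13, against 7.83% of all genes, and a CHOP-ATF4 match in 0, against 4.01%. A match is a description of these letters and not a binding site. Sequences are shown for TNFSF15, TNFRSF9 and TNFRSF1B, the risen members with a window, in lower case from 5′ to 3′ on the strand of the gene, with matches in capitals. The stretches differ in length, and that of TNFRSF9 was cut around its NF-kappa-B matches, so they are not a like comparison. The TNFSF15 stretch is chr9:114792531-114792780 on the minus strand, the 250 bases before a RefSeq start. This start lies inside the annotated gene, which spans 114784635 to 114806126, so the stretch does not precede the gene's annotated first base. The TNFRSF9 stretch is chr1:7940890-7940919 on the minus strand, 30 bases from -80 to -51 that all lie in an annotated exon. It too lies inside the annotated gene, which spans 7915894 to 7943165. The capitals cover a pair of overlapping NF-kappa-B matches, on opposite strands, that begin at -74 and -73. The AP-1 match of TNFRSF9 begins at -44, outside this stretch. The TNFRSF1B stretch is chr1:12166741-12166942 on the plus strand, the bases from -250 to -49, with no match.
TNFSF15: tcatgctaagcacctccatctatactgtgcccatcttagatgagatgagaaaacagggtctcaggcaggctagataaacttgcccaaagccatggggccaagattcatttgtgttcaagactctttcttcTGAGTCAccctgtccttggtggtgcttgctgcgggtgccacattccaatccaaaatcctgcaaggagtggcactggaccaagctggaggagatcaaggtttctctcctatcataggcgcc
TNFRSF9: tgtggtGGGAATTTCCCatgagaccccgcc
TNFRSF1B: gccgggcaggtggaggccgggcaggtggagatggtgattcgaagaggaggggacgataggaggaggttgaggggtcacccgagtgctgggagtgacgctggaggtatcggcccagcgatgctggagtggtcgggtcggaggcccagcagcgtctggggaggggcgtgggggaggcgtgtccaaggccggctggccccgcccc

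Signaling genes downstream of the receptors were taken from 6 lists written from general knowledge, with earlier results of these data known. They hold 70 genes in all when each is counted once. The shares below describe the lists and are no test of them. Of the 67 tested, 21 were called higher (31.3%, against 17.1% of all genes) and 4 lower (5.97%, against 15.2%), which is 37.3% in either direction against 32.4%. The median log2 fold change was 0.26, beside 0.03 for all genes.
Of 15 tested genes of death receptor signaling, 5 were called higher and 2 lower (46.7% in all, against 32.4% of all tested genes). CFLAR, which encodes the caspase-8 inhibitor c-FLIP, rose from 66.1 ± 1.45 CPM in shNC to 111 ± 4.60 in shBry (SD, n = 3; log2 fold change 0.75, adjusted p = 2.7e-06 in edgeR). RIPK2, a kinase gene of NF-kappa-B signaling, rose from 16.0 ± 0.393 CPM in shNC to 30.3 ± 0.417 in shBry (log2 fold change 0.93). XIAP and CRADD were also among those called higher, and the genes called lower were the adaptor TRADD (-0.60) and the initiator caspase gene CASP10 (-0.63). FADD and CASP8 had log2 fold changes of -0.34 and 0.28 and were not called.
Of 11 TRAF adaptor and cIAP genes, 3 were called higher and 0 lower (27.3%, against 32.4% of all tested genes). TRAF1, an adaptor that binds TRAF2, rose from 10.7 ± 0.897 CPM in shNC to 192 ± 18.8 in shBry (log2 fold change 4.16), and BIRC3, which encodes cIAP2, from 7.29 ± 1.45 to 35.4 ± 7.90 CPM (log2 fold change 2.28).
Of 21 canonical NF-kappa-B genes, 7 were called higher and 0 lower (33.3%, near the share of all genes), among them the deubiquitinase gene TNFAIP3, an inhibitor of the pathway, from 7.61 to 36.8 CPM (log2 fold change 2.27), and RBCK1, of the linear ubiquitin ligase, from 112 to 294 CPM (log2 fold change 1.39). The others were REL, a subunit, the inhibitor genes NFKBIA and NFKBIE, TNIP2 and the deubiquitinase gene CYLD. Of 8 noncanonical NF-kappa-B genes, 3 were called higher and 0 lower (37.5%, against 32.4%), with RELB at 2.05 and NFKB2 at 1.62. This list shares 5 genes with the lists before it, BIRC3 among those called.
Of 11 genes of the JNK and p38 arm, JUN (1.09) and FOS (1.07) were called higher. MAP2K6, a kinase of p38, was called lower (-3.55), which makes 27.3% in all, against 32.4% of all tested genes. Of 6 shedding genes, ADAM17 (0.66), the protease that releases TNF and several receptors, and the aminopeptidase gene ERAP1 (1.10) were called higher. TIMP3, which encodes an inhibitor of ADAM17, was called lower (-1.72), which makes 50% in all, against 32.4%.

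**Figure D5:**
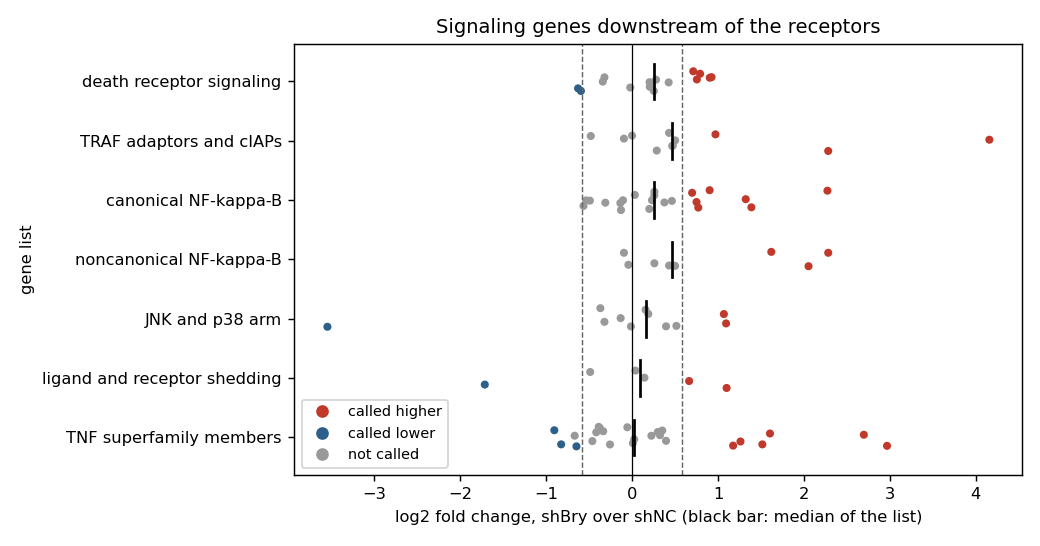
Log2 fold change of shBry over shNC for each tested gene of 6 signaling lists and of the superfamily, with a black bar at each median and dashed lines at the fold change limit of 1.5. Calls in the TRAF and NF-kappa-B lists are all to the right, up to 4.16 for TRAF1, while the members lie on both sides with a median of 0.02.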

How the data were processed

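RNA of MDA-MB-231 shBry and shNC cells, 3 libraries each, was sequenced, and the authors deposited raw counts, whole numbers of reads per gene symbol with no normalization. The submitters' processing notes name HISAT2 2.0.4, HTSeq and GRCh38. The annotation and the strand setting are not given in the sources used here, so overlapping genes may share reads. RTEL1 and its read-through gene RTEL1-TNFRSF6B had nearly equal counts in every library.

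Genes with enough counts (filterByExpr, minimum 10) were scaled with TMM and tested in edgeR 4.0.16 (quasi-likelihood test, R 4.3.3). The test was also run on simulated counts. These held far fewer changed genes than were called here, so that run does not cover change this wide. Adjusted p are Benjamini-Hochberg values over 15277 genes. CPM are TMM-normalized, and exon lengths and overlaps are from GENCODE 29, matched by symbol. Members and gene lists were chosen with earlier results of these data known. Every called member and every tested member with a mean of at least 10 CPM was named with its value in each library, and in each signaling list the 2 called genes with the smallest adjusted p; other signaling genes were named after their values were seen. The alternatives were no TMM, DESeq2 1.42.0, voom of limma 3.58.1, other filters and thresholds, a replicate block, and each library left out.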

Additional observations from a re-analysis of the deposited data

How the results depend on the processing

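The 9 called members kept their call and direction without TMM, with DESeq2, with limma-voom, without an expression filter, with at least 10 counts in every library, at unadjusted p, under the replicate block and with each library left out in turn. Calls higher stayed at 6 and calls lower at 3 over the fits that left out 1 library, with 2 ligands and 7 receptors called. Over those fits 4587 to 5025 genes were called in all, 23 to 28 of the signaling genes, and the members' median log2 fold change lay between -0.13 and 0.076, so its sign is not fixed. It was 0.12 with at least 10 counts in every library and 0.047 with limma-voom. At a fold change above 2, 2297 genes, 0 members lower, 1 ligand and 12 signaling genes were called, and EDA, TNFRSF10D and TNFRSF6B lost their calls. Without a fold change limit, 8139 genes, 7 members lower, 13 receptors and 45 signaling genes were called. Without the expression filter 4 ligands were called, with TNFSF8 and CD70 added.

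Deviations from the group mean correlated at 0.18, -0.08 and -0.03 over 15277 genes for libraries of the same number, 1, 2 and 3. For unlike numbers they ran from -0.22 (shBry 1 with shNC 3) to 0.23 (shBry 2 with shNC 3). Pairing by number is thus not shown, and 3 libraries per group cannot exclude it. With the replicate block, 4914 genes in all, 6 members higher and 3 lower, 2 ligands, 7 receptors and 25 signaling genes were called, and the members' median was 0.03. Genes of few counts, such as TNFSF4, TNFRSF13C and TNFRSF11B, have standard errors of 0.38 to 0.41 on the log2 scale, so that changes of that size were not detectable at this depth.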

Other observations

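A pair of genes of the superfamilies fell outside the rule by their symbols. RELT, which encodes a TRAF-binding receptor, had 906, 1066 and 1190 counts in shBry and 1001, 1030 and 738 in shNC, for a log2 fold change of 0.15 ± 0.11 (standard error) and an adjusted p of 0.27 in edgeR's test. CD40LG, which encodes the ligand of CD40, had 0 counts in every library. Both were named after their values were seen.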
